A study of Mus musculus with 6 samples.

Results

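The miR-34 family was examined in mouse EB3 cells, an embryonic stem (ES) cell line of 129/Ola background, on single-colour Agilent microRNA (miRNA) arrays. The array held 650 miRNAs, 611 of them from mouse, and 4 belonged to the family by name: miR-34a, miR-34b-3p, miR-34b-5p and miR-34c. Passenger strands, named with a star on this array, were left out. One sample was hybridised per array, with 3 samples titled Activin (-), whose source is given as control, and 3 titled Activin (+), given as differentiated with Activin. Activin, a ligand of the TGF-beta family, was used at 10 ng/ml over 3 days of embryoid body culture and 15 days on gelatin, with harvest on day 18. All 6 samples carry an identical culture text, which leaves unstated whether Activin (-) cells were differentiated without Activin or kept undifferentiated. Whether samples within a group were grown as separate cultures is unstated too, so a p-value here speaks only of sample-to-sample spread, possibly technical. In bulk RNA, fewer cells holding a miRNA and less of it per cell cannot be told apart.

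The miR-34 miRNAs are transcribed from separate loci, one for miR-34a and a shared transcript for miR-34b and miR-34c, and both loci are direct targets of the tumour suppressor p53. They repress transcripts for cyclins, cyclin-dependent kinases and other cell cycle proteins, and miR-34a has been described as a barrier to reprogramming and to broad developmental potential in ES cells. miR-34b and miR-34c are known for high levels in multiciliated epithelium and testis, where they act beside the miR-449 miRNAs of the same seed. The seed, bases 2 to 8 of a mature miRNA, pairs with target transcripts.

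The mature sequences are shown to set the members that share a seed apart from the one that does not. They are written 5′ to 3′ with the seed in capitals, from RefSeq with build GRCm38.p6. The array's name miR-34a is the older name of the 5p arm.
miR-34a: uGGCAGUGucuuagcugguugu
miR-34b-5p: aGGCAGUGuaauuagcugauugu
miR-34b-3p: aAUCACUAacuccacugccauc
miR-449a: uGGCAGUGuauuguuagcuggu
miR-449c: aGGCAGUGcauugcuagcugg

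miR-34a, miR-34b-5p, miR-449a and miR-449c share the seed GGCAGUG, while miR-34b-3p, the opposite arm of the miR-34b hairpin, has the seed AUCACUA. Outside the seed these miRNAs diverge. Over the whole mature sequence, miR-34a was 4 single-base edits from miR-34b-5p, 6 from miR-449a and 7 from miR-449c. No RefSeq sequence was matched to the array's miR-34c or miR-449b, so neither is shown. On GRCm38.p6, miR-34a lies at chr4:150068473-150068494 on the plus strand, in a gene that overlaps no other RefSeq gene. miR-34b-5p lies at chr9:51103610-51103632 and miR-34b-3p at chr9:51103574-51103595, both on the minus strand. Mir34b and Mir34c are next to each other in the gene order, within the span of the genes Btg4 and Hoatz.

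The arrays differed in brightness. The 75th percentile of probes detected on all 6 arrays was 249, 616 and 427 intensity units on Activin (-) 1, 2 and 3, and 570, 177 and 554 on Activin (+) 1, 2 and 3. Activin (-) 1 and Activin (+) 2 were thus the dimmest, and they detected 80 and 54 mouse miRNAs against 110 to 119 on the others. The array carried 16 ES cell markers, of which 10 were found on 1 or more arrays and 4 on all 6, and their summed scaled signal ran from 6.31 to 16.1 in Activin (-) and from 5.97 to 7.74 in Activin (+). That sum joins members that went opposite ways. miR-302c was higher in Activin (+) by 1.23 on the log2 scale (limma adjusted p = 0.00597), a call lost under 19 of 23 alternatives. Testing required detection on every array of a group, and miR-302c was detected on 2 Activin (-) and 3 Activin (+) arrays. It thus entered only through the group where it was higher. Its groups overlapped, and its Activin (-) mean of -4.08 ± 0.89 (SD, n = 3) lay near the floor of -4.94. The 5 tested miR-290 cluster members lay between -0.74 and -0.37 and were not called. Markers of mesenchymal cells were detected for 4 of 6 miRNAs, with a sum of 1.77 to 2.50 in Activin (-) and 2.69 to 2.91 in Activin (+). All 4 were tested and lay above 0, and 0 were called (limma adjusted p from 0.427 to 0.754). Groups did not overlap for 2 of these 4, against 17.7% of all tested miRNAs. Epithelial markers were detected for 3 of 7, striated muscle markers for 1 of 6 and endothelial markers for 1 of 2. Blood and liver or islet markers were detected for 0 of 7 and 0 of 5. The part of these marker levels in the results on the family was not tested.

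Each member was read by 2 probes of 10 repeated spots, which gave 80 spots per array for the family. No spot of a member was saturated. Over the 6 arrays, 18 of these spots carried an outlier flag and were left out. The 2 probes of a miRNA bind it with different strength, so values are compared between arrays and not between miRNAs.

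miR-34a was the member found on every array. Its brighter probe read 242 ± 59.0, 666 ± 51.6 and 383 ± 28.0 intensity units on Activin (-) 1, 2 and 3 (mean ± SD over spots). On Activin (+) 1, 2 and 3 it read 569 ± 41.7, 212 ± 46.0 and 618 ± 23.0. The 2 dim arrays were the 2 lowest, 1 in each group, and all used spots of this probe were well above background on all 6 arrays. The dimmer probe ran from 12.4 to 56.5 and was detected on 4 arrays, all but the 2 dim ones. On those 4 arrays the brighter probe exceeded the dimmer by 9.69 to 12.5 times.

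**Figure D1:**
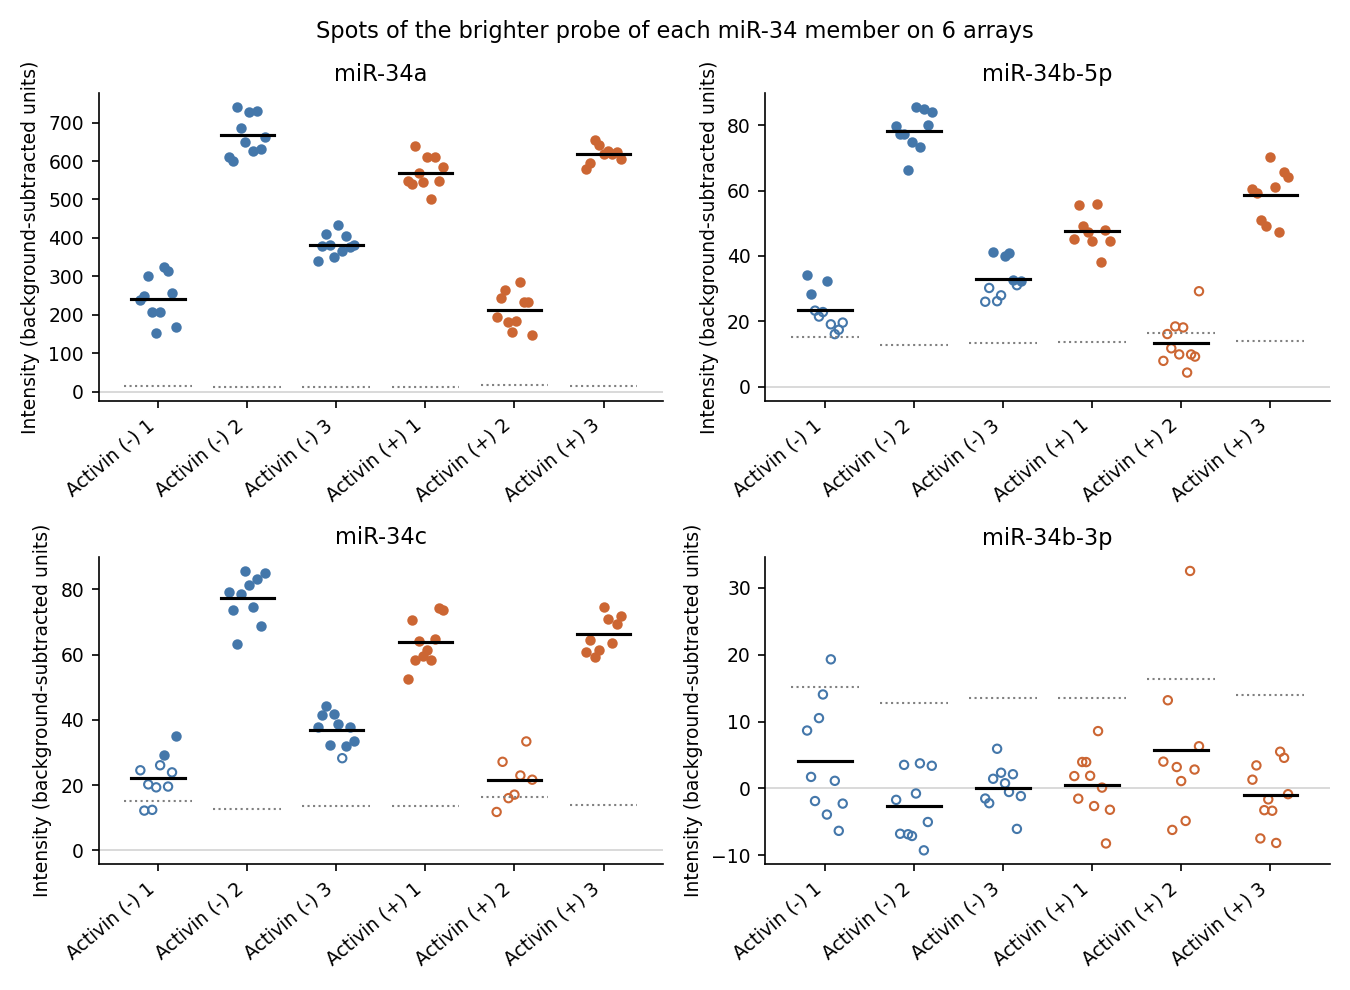
Background-subtracted intensity (y axis, linear, own range per panel) of each spot of the brighter probe for the 4 members on the 6 arrays (x axis); filled points are spots well above background, open points are not, black bars are means over spots and dotted grey bars the 95th percentile of negative control spots on that array. The array means of miR-34a run from 212 to 666 units, the highest array means of miR-34b-5p and miR-34c are 78.3 and 77.3, and those of miR-34b-3p run from -2.70 to 5.78.

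Once each array was divided by its 75th percentile of detected probes, miR-34a stood at nearly the same level in both groups. Its scaled log2 signal was -0.94, -0.77 and -1.02 on Activin (-) 1, 2 and 3 and -0.86, -0.66 and -0.73 on Activin (+) 1, 2 and 3. The groups overlapped, since Activin (+) 1 lay below Activin (-) 2. The means were -0.91 ± 0.13 and -0.75 ± 0.10 (SD, n = 3 each), a log2 fold change of 0.16 or 1.12-fold. In the limma fit over 79 mouse miRNAs detected on every array of at least 1 group, miR-34a did not pass the threshold of 0.05 (SE 0.29, 95% interval -0.42 to 0.74, adjusted p = 0.813). That interval covers folds from 0.747 to 1.67. The SE came almost wholly from the variance shared by all miRNAs, and miR-34a itself had a residual SD of 0.12 against a median of 0.31. An exact permutation test of the scaled signal, which uses no shared variance, gave p = 0.2 (two-sided, smallest possible 0.1).

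The fold change of miR-34a lay at the middle of all miRNAs tested. The median log2 fold change of the 79 was 0.17, with 50 above 0 and 29 below, and miR-34a lay within 0.01 of it. One miRNA of the 79, the ES cell marker miR-302c, was called (1.27%), and groups did not overlap for 14 (17.7%). At an unadjusted p under 0.05 there were 9. Among the family, 1 of 4 members passed the filter, and 0 of that 1 was called or free of overlap.

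Within each slide column that held an array of both groups, miR-34a was higher in Activin (+) by 0.28 in column 1 and by 0.038 in column 2. These are single pairs of arrays, and in both the Activin (+) array lay in slide row 2. Its sign was not stable under other scalings. The log2 fold change fell below 0 when arrays were divided by the 75th percentile over every miRNA probe (-0.0023) or by their spike-in signal (-0.12), under normexp background correction (-0.071), and when Activin (+) 2 was left out (-0.053). The median of all tested miRNAs moved too, from 0.17 to 0.0054, -0.11, -0.31 and 0.087 in these 4 settings. Relative to the median of all tested miRNAs it ran from -0.14 to 0.23 over 23 alternatives, of which it passed the threshold in none (limma adjusted p from 0.428 to 0.999).

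**Figure D2:**
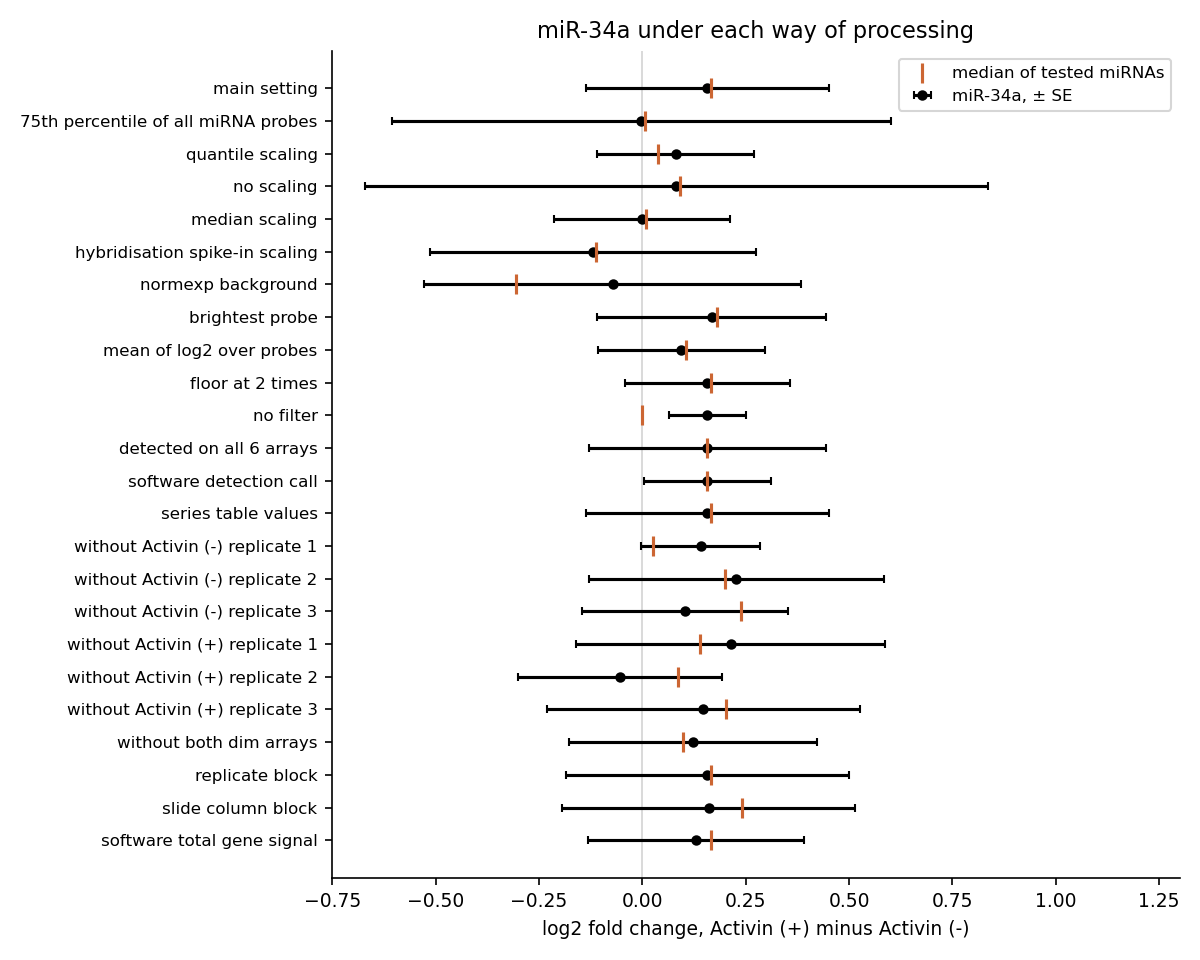
log2 fold change of miR-34a, Activin (+) minus Activin (-) (x axis), under the main setting and each of 23 alternatives (rows); points are limma estimates with bars of 1 SE, and orange ticks are the median of the miRNAs tested in that setting. Estimates run from -0.12 to 0.23, and relative to the ticks from -0.14 to 0.23.

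The scaled signal of miR-34a spanned a narrow range. Its 6 values spanned 0.36 on the log2 scale, the second smallest span of the 79 tested miRNAs, whose median span was 0.94. The smallest was that of miR-20b, at 0.23. This comparison was made after the values were seen, and it rests on the scaling and on the dim arrays. The span ranked 39 of 79 with quantile scaling and 48 of 79 with spike-in scaling. Without Activin (+) 2 it was 0.66 and ranked 49 of 111, and without both dim arrays it was 0.66 and ranked 85 of 115.

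miR-34b-5p and miR-34c were found on the brighter arrays only. By the majority of spots, miR-34b-5p was detected on Activin (-) 2 and on Activin (+) 1 and 3, and miR-34c on those arrays and on Activin (-) 3. The scanner software's own call found both on all arrays except Activin (+) 2. Counting all 4 members, 1, 3 and 2 were detected on Activin (-) 1, 2 and 3 and 3, 1 and 3 on Activin (+) 1, 2 and 3 (means 2.0 ± 1.0 and 2.33 ± 1.15, SD, n = 3 each, exact permutation p = 1.0, smallest possible 0.1). Over all 611 mouse miRNAs, 8.67% were detected on all 6 arrays and 21.3% on at least 1, against 1 and 3 of the 4 members.

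The brighter probe of miR-34b-5p read 23.5 ± 6.17, 78.3 ± 5.93 and 32.9 ± 5.90 intensity units on Activin (-) 1, 2 and 3 (mean ± SD over spots). On Activin (+) 1, 2 and 3 it read 47.6 ± 5.56, 13.5 ± 7.16 and 58.6 ± 7.88. Activin (-) 2 was highest and Activin (+) 2 lowest, where 0 of 10 spots were well above background, and on Activin (-) 3 exactly 5 of 10 were. The 95th percentile of single negative control spots lay between 12.8 and 16.4 on the 6 arrays. On Activin (+) 2 the probe mean of 13.5 was below that percentile, 16.4, and above the negative control median, 2.64. Of the 20 spots of both probes there, 3 exceeded the percentile. On the scaled log2 scale the groups overlapped, at -4.04 ± 0.33 and -4.29 ± 0.24 (SD, n = 3 each), a difference of -0.25 (exact permutation p = 0.4).

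miR-34c, whose gene neighbours that of miR-34b, followed the brightness of the arrays as well. Its brighter probe read 22.3 ± 7.13, 77.3 ± 7.25 and 36.8 ± 5.10 intensity units on Activin (-) 1, 2 and 3 and 63.8 ± 7.19, 21.4 ± 7.30 and 66.2 ± 5.50 on Activin (+) 1, 2 and 3 (mean ± SD over spots). On Activin (+) 2 a flag removed 3 of its 10 spots, and 0 of the other 7 were well above background. The scaled log2 signal was -4.09 ± 0.31 in Activin (-) and -3.92 ± 0.08 in Activin (+) (SD, n = 3 each). The groups overlapped, with a difference of 0.17 (exact permutation p = 0.6).

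Neither miRNA was detected on all 3 arrays of a group, so both stayed out of the main test. Where another choice let them in, neither passed the threshold. With the software's detection call, limma over 97 miRNAs placed miR-34b-5p at -0.25 on the log2 scale, with an SE of 0.23 (adjusted p = 0.601), and miR-34c at 0.17, with an SE of 0.20 (adjusted p = 0.665). Without both dim arrays, which leaves 2 against 2, the values were -0.10 (SE 0.45, adjusted p = 0.947) and 0.20 (SE 0.41, adjusted p = 0.847), over 115 miRNAs. Without Activin (+) 2 they were -0.31 (adjusted p = 0.596) and -0.016 (adjusted p = 0.977). With no filter, over 611 miRNAs, they were -0.25 (adjusted p = 0.428) and 0.17 (adjusted p = 0.466).

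miR-34b-3p was not well above background on any array or in any spot. The means of its 2 probes ran from -4.62 to 5.78 intensity units, and the median of negative control spots from 2.64 to 5.54. Each probe mean lay below the median of its own array, except the brighter probe on Activin (+) 2, at 5.78 against 2.64. Between 6 and 19 of the 39 viral miRNAs on the array, used here as a second background, read as high as miR-34b-3p or higher. For miR-34a that number was 0 on every array, and for miR-34b-5p and miR-34c it was 0 on Activin (-) 2, Activin (+) 1 and Activin (+) 3. From the miR-34b hairpin, the arm with the miR-34 seed was thus detected on 3 of the 6 arrays, by 1 of its 2 probes. The other arm was not detected. Probe strengths differ, so this does not compare the levels of the arms.

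**Figure D3:**
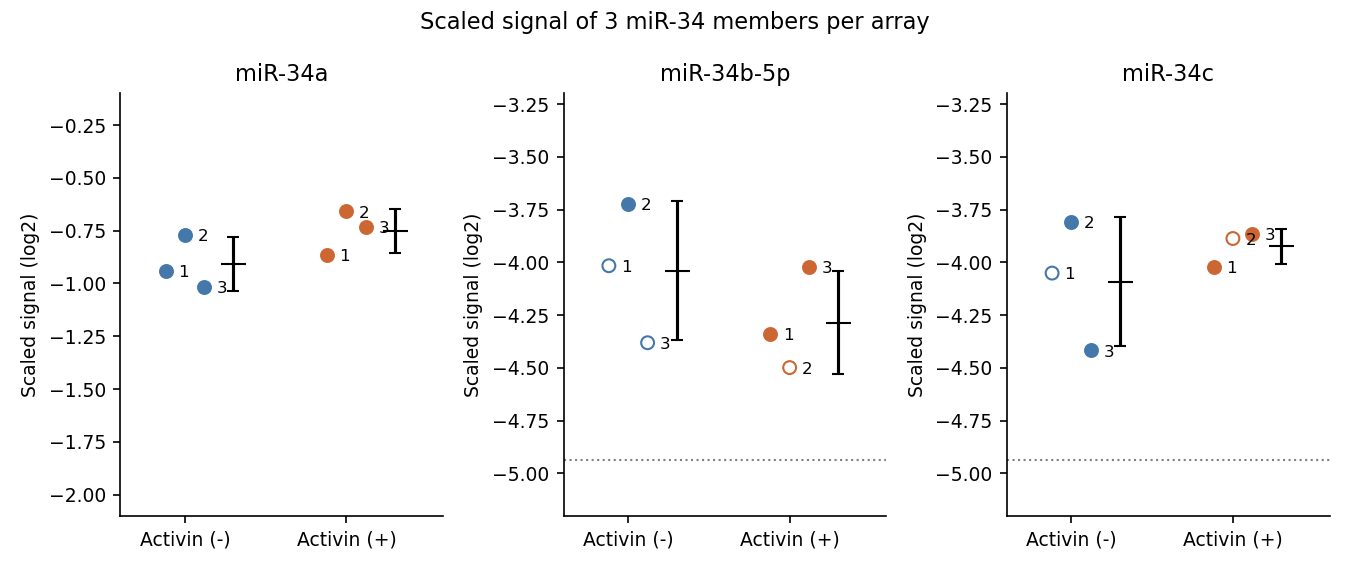
Scaled signal (y axis, log2, the same span of 2 units in each panel) of miR-34a, miR-34b-5p and miR-34c in Activin (-) and Activin (+); numbers are replicates, filled points are arrays where the miRNA was detected, black bars are mean ± SD (n = 3) and the dotted line is the floor of -4.94. All groups overlap, and the open points of miR-34b-5p and miR-34c include both dim arrays.

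Differences between members within 1 array cancel the array's scale, apart from the floor. Probe strength cancels between groups only if it acts as the same factor on every array. The ratio of brighter to dimmer probe varied, from 2.86 to 11.5 for miR-34c, 3.21 to 6.20 for miR-34b-5p and 9.69 to 17.1 for miR-34a. The dimmer probes of miR-34b-5p and miR-34c were not detected on any array, and background added to such signals does not cancel. miR-34c minus miR-34a was -3.11, -3.04 and -3.40 on Activin (-) 1, 2 and 3 and -3.16, -3.23 and -3.13 on Activin (+) 1, 2 and 3 (log2). These overlapped, and the group means of -3.18 ± 0.19 and -3.17 ± 0.05 differed by 0.01 (SD, n = 3 each, exact permutation p = 1.0). miR-34b-5p minus miR-34a was -3.08, -2.95 and -3.37 in Activin (-) and -3.48, -3.84 and -3.29 in Activin (+). Its groups overlapped too, with a difference of -0.40 (exact permutation p = 0.2).

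The comparison of miR-34b-5p with its cluster partner miR-34c rests on few detected values, since both were detected on 1 Activin (-) array and 2 Activin (+) arrays. miR-34b-5p minus miR-34c was 0.03, 0.08 and 0.04 on Activin (-) 1, 2 and 3 and -0.32, -0.61 and -0.16 on Activin (+) 1, 2 and 3. The groups did not overlap, and the means of 0.05 ± 0.03 and -0.36 ± 0.23 differed by -0.41 (SD, n = 3 each). The exact permutation p of 0.1 is the smallest that 3 against 3 arrays can give, and it was 0.3 after Benjamini-Hochberg adjustment over the 3 pairs of members, so the difference did not pass a threshold. On the 3 arrays with both detected, the value was 0.08 on Activin (-) 2 and -0.32 and -0.16 on Activin (+) 1 and 3, and the lowest value, on Activin (+) 2, came from probes not well above background. The difference was -0.30 without both dim arrays and -0.40 with the brighter probes alone. With normexp background correction it was -0.06 (exact permutation p = 0.6), with groups that overlapped. With the floor at 2 times the main one it was -0.07 (exact permutation p = 0.3), also with overlap. Normexp added an offset of 50 units, which shrinks log2 differences between signals this weak. The doubled floor set both miRNAs to the same value on Activin (-) 1 and 3 and Activin (+) 1. It also replaced miR-34b-5p on Activin (+) 2 and 3. These settings thus cannot decide whether the difference holds. The software's total gene signal gave -0.18 over all 6 arrays, with groups that overlapped. The overlap came from Activin (+) 2 alone, where the software detected neither miRNA and both took the same value. Over the 5 arrays where the software detected both, it gave -0.28, with groups that did not overlap (exact permutation p = 0.2).

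**Figure D4:**
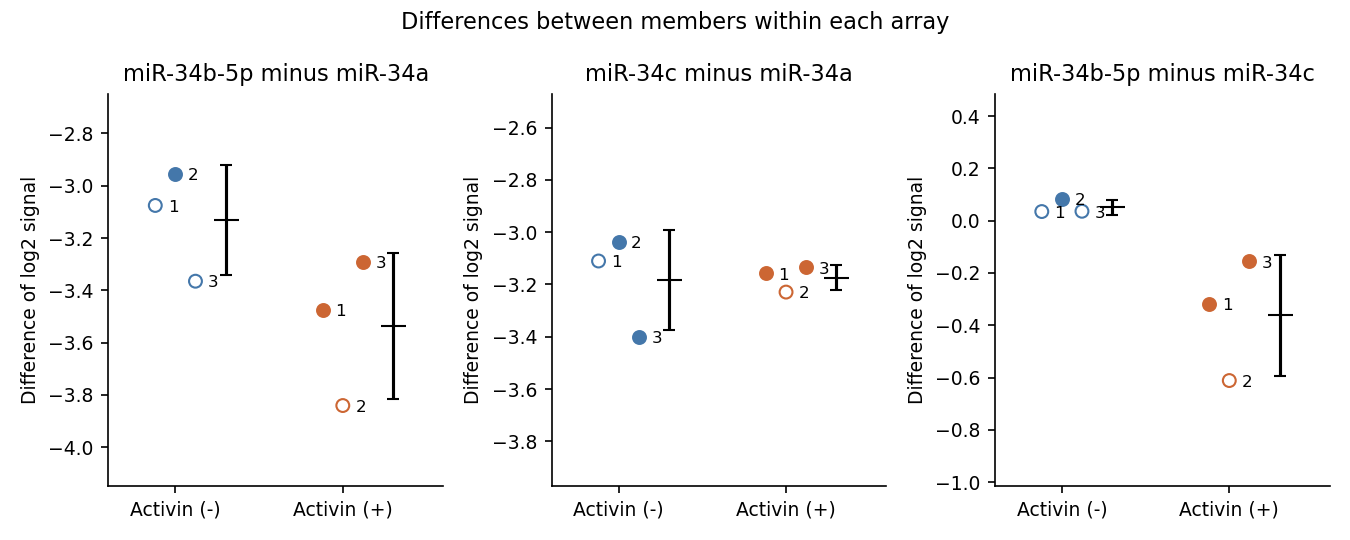
Difference of log2 signal between 2 members on the same array (y axis), for 3 pairs of members in Activin (-) and Activin (+); numbers are replicates, filled points are arrays where both members were detected, and black bars are mean ± SD (n = 3). miR-34b-5p minus miR-34c lies between 0.03 and 0.08 in Activin (-) and between -0.61 and -0.16 in Activin (+), and the other 2 pairs overlap.

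The miR-449 miRNAs, which carry the same seed and mark multiciliated cells, were not detected on any array by either call. miR-449a ran from 0.496 to 5.23 intensity units, miR-449b from -1.22 to 0.944 and miR-449c from -5.65 to -1.74. Their summed scaled signal was 0.00239 to 0.0223 in Activin (-) and 0.00144 to 0.0144 in Activin (+). Of neural markers, 1 of 4 was detected, miR-124 on 1 array.

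Like miR-34a, no tested miRNA on the 3 lists tied to p53 was called, where 1 of all 79 tested miRNAs was (1.27%). The array held 11 miRNAs that p53 is described to raise through transcription or processing, with 5 found on 1 or more arrays and 4 tested with limma. None of the 4 was called, all had a log2 fold change above 0, and their median was 0.24 against 0.17 for all tested miRNAs. miR-15a, a repressor of Bcl2, had the largest, at 0.32 (SE 0.30, adjusted p = 0.614). miR-22 was at 0.27, miR-107 at 0.20 and the epithelial miRNA miR-200c at 0.10. miR-192, miR-194 and miR-215, induced by p53 in epithelial cells, and miR-143, miR-145 and miR-205 were not detected on any array.

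The polycistronic cluster from miR-17 to miR-92a, which promotes proliferation and is described as repressed by p53, had 4 of 6 members tested, with 2 above 0, 2 below and a median of -0.011. miR-92a was at 0.24, miR-20a at 0.019, miR-18a at -0.042 and miR-19b at -0.15, and none was called. Of 5 miRNAs described as repressing p53 itself, 3 were tested and none was called, with a median of 0.31. miR-125a-5p was at 0.35 (SE 0.29, adjusted p = 0.614), miR-25 at 0.31 and miR-125b-5p at 0.15. In the 3 lists, groups were without overlap for miR-125a-5p alone, against 14 of all 79 tested miRNAs (17.7%). The lowest unadjusted limma p in these 3 lists was 0.241, for miR-125a-5p.

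**Figure D5:**
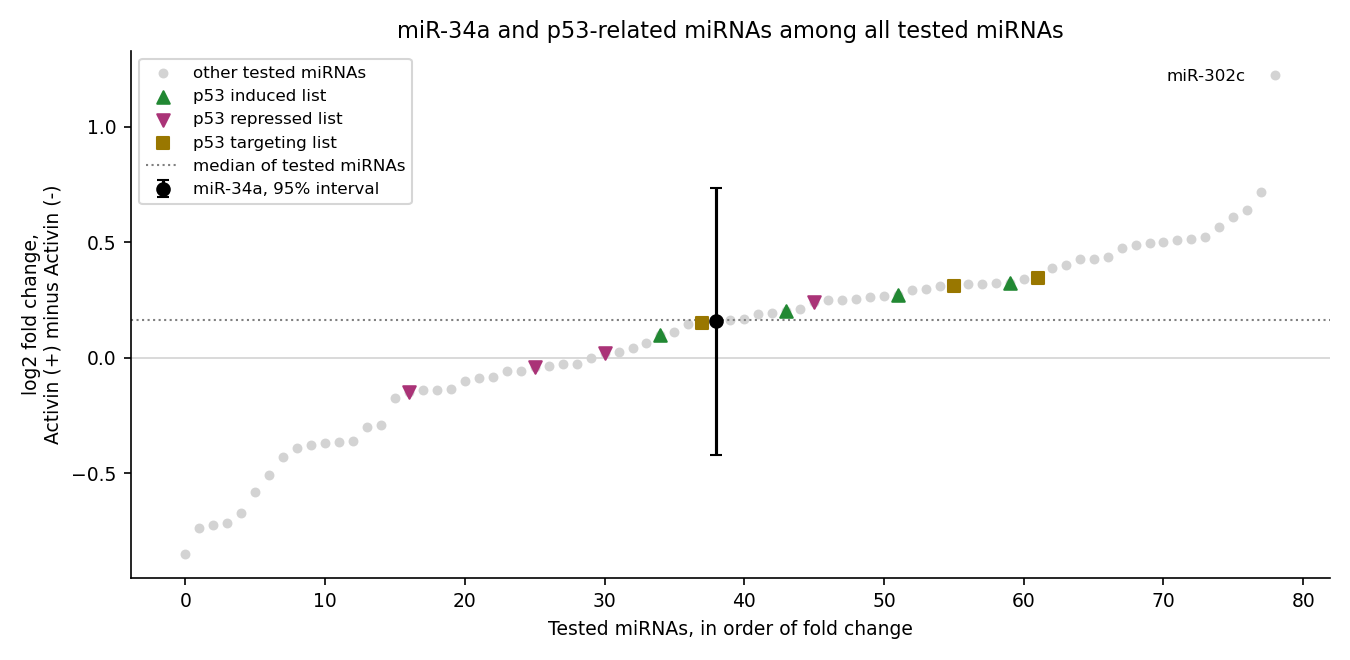
log2 fold change, Activin (+) minus Activin (-) (y axis), of the 79 tested miRNAs in rising order (x axis); the black point is miR-34a with its 95% limma interval, coloured symbols are the 3 p53-related lists and the dotted line is the median of 0.17. miR-34a lies on the median, and the listed miRNAs lie between -0.15 and 0.35.

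The tested miRNAs whose scaled signal followed miR-34a most closely over the 6 arrays were miR-22 (Pearson r = 0.835), let-7e (0.734), miR-331-3p (0.631), miR-214 (0.625) and miR-193b (0.609). All 5 were highest on Activin (+) 2, the dimmest array, as was miR-34a. Of these, miR-331-3p and miR-193b were detected on 5 of the 6 arrays, all but Activin (+) 2. The values of r share the scaling of 6 arrays, are given as a description and carry no p. miR-22, the nearest, belongs to the induced list, and its scaled log2 signal was -0.84, -0.81 and -0.93 on Activin (-) 1, 2 and 3 and -0.89, -0.25 and -0.62 on Activin (+) 1, 2 and 3. Its groups overlapped, since Activin (+) 1 lay below Activin (-) 1 and 2.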

How the data were processed

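miRNA levels were measured in 6 samples of EB3 cells, 3 titled Activin (-) and 3 titled Activin (+), on 1 array each. The deposited scanner files hold spot intensities on a linear scale, background-subtracted and with outlier flags, by Agilent Feature Extraction 10.7.3.1 per the file headers (10.1.1 per the submitters' processing notes). The deposited series table held the same intensities on all 13715 features (relative tolerance 1e-05). Its column medians were 1.52, 1.77 and 1.29 in Activin (-) and 1.84, -0.0489 and 1.24 in Activin (+), so it is linear and not centred.

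Spots without an outlier flag were averaged per probe, then probes per miRNA. Signals were scaled to the array's 75th percentile over the 59 probes detected throughout, floored at 0.0326 and put on a log2 scale. Detection of a probe required that a share above 0.5 of its unflagged spots stood well above background, and a miRNA needed 1 such probe. Activin (+) was compared with Activin (-) with limma 3.58.1 in R 4.3.3, with Benjamini-Hochberg adjustment over all tested miRNAs; single values were compared with exact permutation tests, two-sided. The fit was tested on simulated data. The files hold no mean spot signal, so normexp and the subtraction of local background used median spot signals. The number of arrays limits the precision. The members, lists and rules were chosen with earlier results of these data known. The text names all members, tested list members by size of change, and the 5 miRNAs most like miR-34a in pattern. Other scalings, backgrounds, filters, blocks and left-out arrays were tried as alternatives. Slide positions were read from the file names. RefSeq matched 3 of the 4 members to a mature sequence.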

Additional observations from a re-analysis of the deposited data

How the results depend on the processing

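The log2 fold change of miR-34a, 0.16, kept its sign under 19 of 23 alternatives and its side of the threshold under all 23. It turned to -0.0023 with the 75th percentile of all probes (exact permutation p = 1.0), -0.12 with spike-in scaling (exact permutation p = 0.9), -0.071 with normexp (exact permutation p = 0.8) and -0.053 without Activin (+) 2 (exact permutation p = 0.9), and the cause was not tested. Leaving out 1 array at a time gave -0.053 to 0.23, with limma adjusted p from 0.758 to 0.909 and exact permutation p from 0.2 to 0.9.

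The 1 miRNA called with limma, miR-302c, was 0 calls with each other scaling, with normexp, with either other summary over probes, with the floor at 2 times, with no filter, with detection on all 6 arrays, with the software's call, with its total gene signal and without both dim arrays. Unadjusted p under 0.05 numbered 0 to 12 in these settings against 9. Leaving out 1 array gave 0 to 1 calls, the 1 without Activin (-) 3, with 3 to 21 at an unadjusted p under 0.05.

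Titles share replicate numbers, but deviations of same-numbered arrays from their group means correlated at -0.64, -0.09 and 0.34. Activin (-) 1 correlated best with Activin (+) 2, at 0.55, and Activin (-) 3 with Activin (+) 1, at 0.66. The first of these pairs holds the 2 dim arrays, which also share slide column 1. The numbers are thus not shown to pair arrays. With the replicate block miR-34a was at 0.16 (SE 0.34, limma adjusted p = 0.871), with 1 call. Blocking on slide column gave 0.16 (SE 0.35, limma adjusted p = 0.830), also with 1 call. Columns 3 and 4 held a single array each, so that estimate rests on the pairs in columns 1 and 2. In both pairs the Activin (+) array lay in slide row 2.

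The difference in members detected per array, 0.333, turned to -0.667 counting any spot well above background or with the software's call. Leaving out 1 array gave -0.167 (without Activin (-) 1) to 1.0 (without Activin (+) 2), and 0 without Activin (+) 1 or 3. No exact permutation p among these was under 0.4. The difference of miR-34b-5p, -0.25 in mean scaled log2 signal, moved to -0.57 with normexp and 0.04 with median spot minus local background. Without Activin (-) 2 it was -0.088 and without Activin (-) 3 -0.42, with no scaling -0.0043 and with the floor at 2 times -0.072. That of miR-34c, 0.17, moved to -0.51 with normexp, -0.14 with spike-in scaling and -0.19 with the software's total gene signal. It was 0.31 without Activin (-) 2, 0.0044 without Activin (-) 3, -0.016 without Activin (+) 2 and -0.0026 with the floor at 2 times. The doubled floor replaced every miR-34b-5p value but that on Activin (-) 2. It replaced miR-34c on Activin (-) 1 and 3 and on Activin (+) 1. The software total, the limma fits of miR-34b-5p and miR-34c, and their alternatives other than median spot minus local background were added after seeing the data.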
